A study of Homo sapiens with 12 samples.

Results

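The tumour suppressor p53 is a transcription factor that binds pairs of 10-base elements in DNA and raises its target genes after DNA damage and other stress. Its targets arrest the cell cycle (CDKN1A, SFN, GADD45A), promote cell death (BBC3, BAX, FAS), repair DNA (DDB2, XPC) or act back on p53 itself (MDM2, PPM1D). Human embryonic stem cells are known for a p53 pathway that is held in check by MDM2 and MDM4 and that drives death readily after damage. The 35 genes described here are well-known p53 targets, chosen by symbol, and all 35 are among the 53712 named genes of the deposited count table. All 35 also passed the filter on low counts that left 17228 genes for testing, from CD82 with 30 to 69 counts per library to CCNG1 with 6665 to 12200.

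RNA was sequenced from 12 samples of H9 cells, an established human embryonic stem cell line, grown in RSeT, a medium sold to hold naive pluripotency. Each sample received 25 nM of 1 of 3 oligonucleotide sets: ASO-Ctr, a control antisense set without a specific target; SO-L1, sense oligos to the LINE1 retrotransposon (L1); or ASO-L1, the antisense oligos to L1. All 12 were then kept with 10 nM DZNep, an inhibitor of S-adenosylhomocysteine hydrolase that lowers histone methylation, and 5 nM TSA, a histone deacetylase inhibitor, until harvest at 48 h. All had 0.7 uM trans-ISRIB, 5 uM emricasan (a caspase inhibitor) and 10 uM Y-27632 (a ROCK inhibitor) until 24 h. There was no sorting, so untransfected cells are included, and no sample without DZNep and TSA is in the comparisons. Transcripts of L1 itself are not analysed here. Each group has 4 libraries numbered 1 to 4, and no label says that they are separate cultures, so the p-values measure the spread between these libraries only.

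Levels are given as CPM (library-scaled counts, with TMM factors), always in the order of libraries 1, 2, 3 and 4. Log2 fold changes stand with their SE, and a gene was called at an adjusted p under 0.05 (edgeR quasi-likelihood F test, Benjamini-Hochberg over the 17228 genes). Total counts lay between 20367989 and 32180891 per library. Numbers 1 and 2 stood apart from numbers 3 and 4 in every group, and no label says what each set shares. Results are therefore also given by set against ASO-Ctr, and in brief against SO-L1. In a second fit the library number is a block, which removes the difference between sets from the error. The value of the block fit is given where it changes a call, and beside some calls lost under other settings. All 8 pluripotency markers were present in every group, with a summed level of 5764 to 6577 CPM in ASO-Ctr, 5620 to 6342 CPM in SO-L1 and 5184 to 5850 CPM in ASO-L1. The summed level of 10 trophectoderm and amnion markers was at most 10.1 CPM. The 8 naive pluripotency markers summed to 500 to 538 CPM in ASO-Ctr, 484 to 544 CPM in SO-L1 and 531 to 580 CPM in ASO-L1, although KLF17, a marker of the naive state, was at a mean of 0.381 CPM in ASO-Ctr and 0.692 CPM in ASO-L1.

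A promoter window from RefSeq (build GRCh38.p14, 250 bases before to 50 after the start of each gene) was found for 28 of the 35 members. TNFRSF10A, TNFRSF10B, TNFRSF10D, TP53INP1, RRM2B, PHLDA3 and GADD45A are not in that table. The 10-base p53 consensus decamer, searched on both strands, occurred in 7 of the 28 windows (25%), beside 2202 of 27305 genes in the table (8.06%). A pair of the same decamers within 13 bases of each other occurred in 1 member, DDB2, and in 10 genes of the table. By call against ASO-Ctr, the decamer occurred in 2 of 8 higher members (25%), 4 of 19 not passed (21.1%) and 1 of 1 lower. Sites outside these windows were not searched. The 250 bases upstream of AEN and PLK2 are shown because these 2 genes rose in ASO-L1 and carry the decamer, in capitals, at bases -34 to -25 and -132 to -123 from the start.
AEN (chr15:88621090-88621339, plus strand): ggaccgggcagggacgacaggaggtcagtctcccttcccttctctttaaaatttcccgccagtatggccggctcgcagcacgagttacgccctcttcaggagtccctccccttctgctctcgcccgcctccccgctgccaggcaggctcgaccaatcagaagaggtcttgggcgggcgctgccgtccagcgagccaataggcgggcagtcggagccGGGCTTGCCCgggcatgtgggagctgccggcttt
PLK2 (chr5:58460087-58460336, minus strand): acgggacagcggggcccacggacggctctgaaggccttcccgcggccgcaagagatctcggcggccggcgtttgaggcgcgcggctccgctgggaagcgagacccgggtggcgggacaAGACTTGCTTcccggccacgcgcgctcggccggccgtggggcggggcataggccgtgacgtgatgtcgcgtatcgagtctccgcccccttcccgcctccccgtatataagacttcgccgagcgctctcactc

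The other decamers lie in members that fell or did not pass the test, and are shown with their flanks, again with the decamer in capitals. In DDB2 the pair sits just after the start, at bases 6 to 26. The others lie before the start, from base -122 in FAS, -49 in SESN1, -11 in FDXR and -59 in RPS27L.
DDB2 (chr11:47214975-47215003, plus strand): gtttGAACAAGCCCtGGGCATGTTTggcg
FAS (chr10:88991299-88991328, plus strand): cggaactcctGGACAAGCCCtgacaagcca
SESN1 (chr6:109009018-109009047, minus strand): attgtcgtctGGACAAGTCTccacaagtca
FDXR (chr17:74872986-74873015, minus strand): gggcaggagcGGGCTTGCCCtgcggagcag
RPS27L (chr15:63157517-63157546, minus strand): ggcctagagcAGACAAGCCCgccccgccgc

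ASO-L1 against ASO-Ctr asks how oligos to L1 RNA act on these genes. Of the 35 members, 10 were higher, 2 were lower and 23 did not pass, beside 11.6% of all genes called higher and 10.7% called lower. The members that rose were led by the arrest genes SFN, GADD45A, PLK2 and PLK3, while CDKN1A and MDM2, the textbook readouts of p53, had log2 fold changes of 0.34 and 0.16. The median log2 fold change of the 35 was -0.03, against -0.00 over all genes tested. At least 2-fold higher were 3 members (SFN, GADD45A and PLK2), beside 2.21% of all genes. The libraries of the 2 groups did not overlap for 12 members, 10 higher and 2 lower, beside 25.5% of all genes. With the replicate block 12 members were higher, 11 lower and 12 not called, beside 22.5% of all genes called higher and 22.5% called lower. In these bulk samples fewer expressing cells and less RNA per cell cannot be told apart.

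Among the 10 genes of feedback and cell cycle arrest, 5 rose (50%) and 5 did not pass, beside 11.6% of all genes called higher. SFN encodes 14-3-3 sigma, which holds cyclin B and CDK1 in the cytoplasm and so blocks entry into mitosis. Its level was 7.52, 7.81, 12.5 and 11.3 CPM in ASO-Ctr, 8.79, 9.19, 17.2 and 16.5 CPM in SO-L1, and 51.5, 49.7, 57.6 and 56.6 CPM in ASO-L1. Every ASO-L1 library lay above every library of the other groups, and the mean rose from 9.78 ± 2.5 to 53.9 ± 3.83 CPM (SD, n = 4). The log2 fold change was 2.46 ± 0.22, a 5.50-fold rise (edgeR adjusted p = 1.03e-05).

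GADD45A, a stress protein that binds PCNA and CDK1 and activates the p38 and JNK pathways, measured 20.2, 21.7, 26.6 and 25.5 CPM in ASO-Ctr. In SO-L1 it was 24.5, 24.5, 30.2 and 28.1 CPM, and in ASO-L1 42.6, 49.6, 79.2 and 75.7 CPM. The ASO-L1 libraries were again the highest, with numbers 3 and 4 far above numbers 1 and 2. Its log2 fold change was 1.39 ± 0.18 (edgeR adjusted p = 0.000153). PLK2, a polo-like kinase of the centrosome and the stress response, went from 13.6, 12.9, 17.5 and 18.2 CPM in ASO-Ctr to 28.7, 26.2, 45.2 and 46.4 CPM in ASO-L1. In SO-L1 it was at 15.1, 12.9, 20 and 18.9 CPM, so no library of ASO-L1 overlapped the other groups. The change was 1.23 ± 0.21 on the log2 scale (edgeR adjusted p = 0.000947). Its relative PLK3 rose by 0.83 ± 0.11, from 14.1, 11.2, 16.2 and 15.8 CPM to 23.7, 22.8, 27.7 and 27.4 CPM (edgeR adjusted p = 0.000153). PLK3 overlaps TCTEX1D4 on the opposite strand; the kit marks strand but the strand setting of the counting is not given in the sources used here, so its reads are uncertain to that extent.

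CDKN1A encodes p21, the inhibitor of cyclin-dependent kinases that carries out most of the p53 arrest. It measured 71.7, 73.8, 55.1 and 56.9 CPM in ASO-Ctr, 74.6, 78.2, 57.7 and 61.4 CPM in SO-L1, and 84.4, 82.6, 78.7 and 79.5 CPM in ASO-L1. The ASO-L1 libraries did not overlap the others, yet the rise was only 1.26-fold, a log2 fold change of 0.34 ± 0.11 (edgeR adjusted p = 0.0444). That call was lost with no filter on low counts (adjusted p = 0.122) and without ASO-Ctr library 3 or 4 (0.139 and 0.121) or ASO-L1 library 1, 2, 3 or 4 (0.115, 0.103, 0.0705 and 0.0817). With the replicate block CDKN1A was called higher (edgeR adjusted p = 3.00e-05). MDM2, the ubiquitin ligase that degrades p53 and is itself a target, measured 168, 176, 141 and 133 CPM in ASO-Ctr and 200, 191, 152 and 148 CPM in ASO-L1. ASO-L1 was higher in 4 of 4 same-number pairs, but the groups overlapped, since numbers 3 and 4 of ASO-L1 lay below numbers 1 and 2 of ASO-Ctr. Its log2 fold change of 0.16 ± 0.14 did not pass over all libraries (edgeR adjusted p = 0.464); it was called with the replicate block (0.000192) and in each set of numbers, as given further on.

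**Figure D1:**
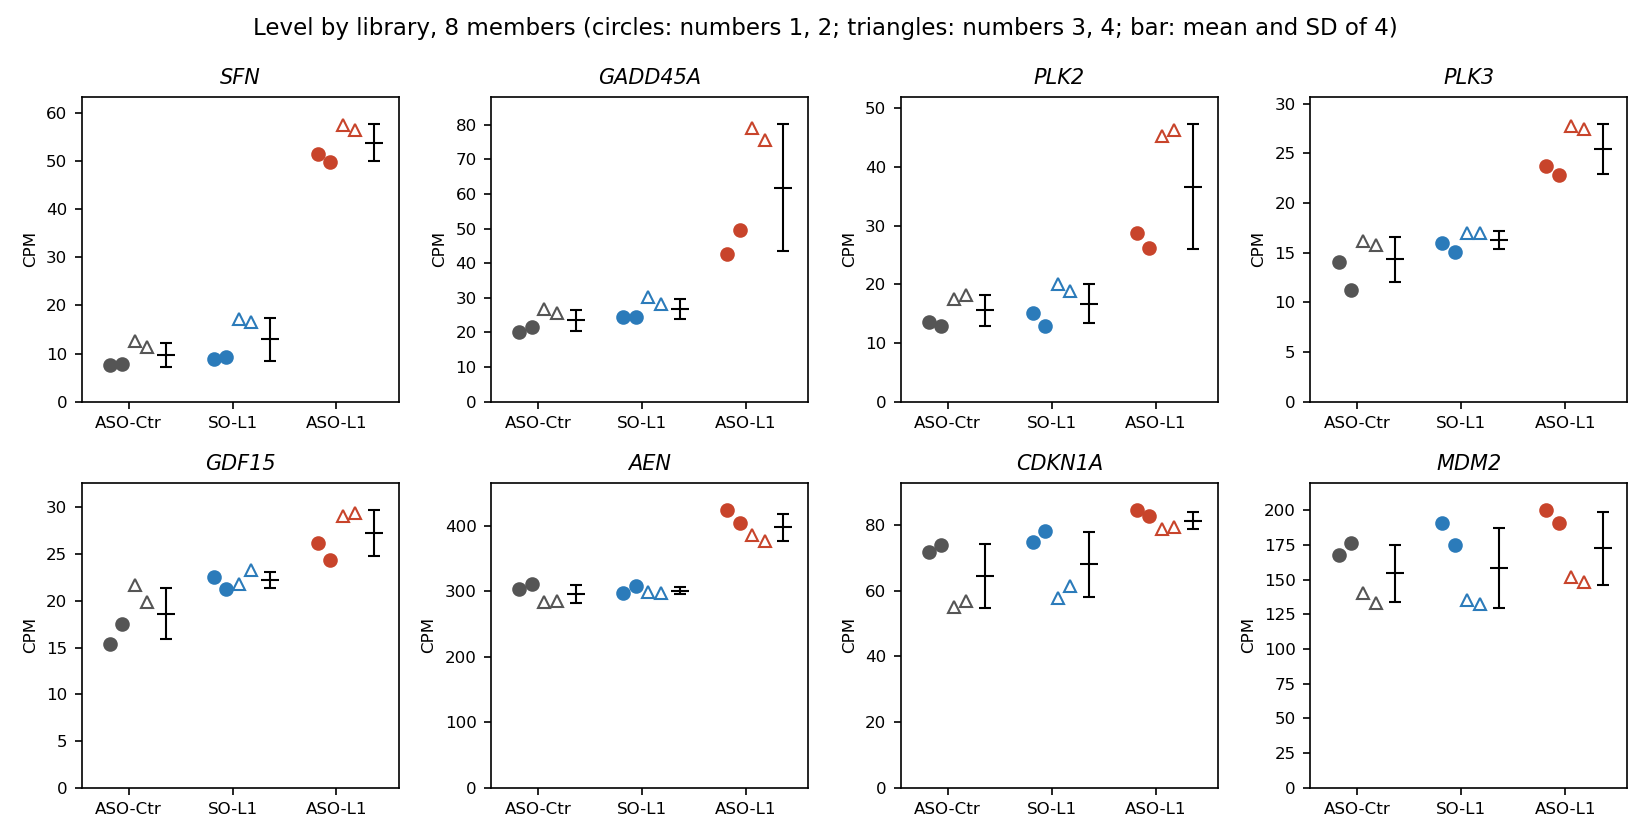
CPM (vertical axis, from 0) of 8 members in the 4 libraries of ASO-Ctr, SO-L1 and ASO-L1; filled circles are numbers 1 and 2, open triangles numbers 3 and 4, and bars the mean and SD of 4. For SFN, GADD45A, PLK2, PLK3, GDF15, AEN and CDKN1A all ASO-L1 libraries lie above all ASO-Ctr libraries, while for MDM2 the groups overlap.

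BTG2, an antiproliferative gene, measured 25.9, 26.3, 14.7 and 16.1 CPM in ASO-Ctr, 25.0, 24.8, 16.3 and 16.5 CPM in SO-L1, and 18.0, 17.6, 9.69 and 10.1 CPM in ASO-L1. ASO-L1 was the lowest within each same-number trio, but its numbers 1 and 2 lay above numbers 3 and 4 of the controls. The log2 fold change of -0.58 ± 0.26 was called with the block (adjusted p = 3.78e-10) and not without it (edgeR adjusted p = 0.137). Its relative BTG1 had a log2 fold change of 0.11 ± 0.10, and PPM1D, the phosphatase WIP1 that switches p53 signalling off, one of -0.11 ± 0.06; neither was called in either fit. CCNG1, cyclin G1, had -0.14 ± 0.17 (edgeR adjusted p = 0.608; 0.000527 with the block), with 407, 416, 297 and 303 CPM in ASO-Ctr and 377, 356, 272 and 286 CPM in ASO-L1. With the block 6 of these 10 genes were higher and 2, BTG2 and CCNG1, lower, beside 22.5% and 22.5% of all genes.

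Of the 5 members grouped as death receptors and related receptors, 1 fell (20%) and 4 did not pass in either fit. Of all genes, 10.7% were called lower, and 22.5% with the block. TNFRSF10B encodes DR5, a receptor for the death ligand TRAIL, and measured 90.9, 89.9, 81.7 and 73.6 CPM in ASO-Ctr and 89.1, 89.3, 76.4 and 74.7 CPM in SO-L1. In ASO-L1 it was 55.7, 59.0, 53.1 and 49.9 CPM, below every library of the other groups. The log2 fold change was -0.63 ± 0.08 (edgeR adjusted p = 0.000163). TNFRSF10B overlaps RHOBTB2 on the opposite strand, with the same limit on its reads as above. FAS, the receptor for FAS ligand, was at 6.98, 6.28, 7.47 and 6.73 CPM in ASO-Ctr and 5.31, 6.71, 6.88 and 6.98 CPM in ASO-L1, a log2 fold change of -0.08 ± 0.11. The TRAIL receptor TNFRSF10A (-0.06 ± 0.16), the TRAIL decoy receptor TNFRSF10D (0.12 ± 0.07) and the ectodysplasin receptor EDA2R (0.11 ± 0.18) had adjusted p between 0.222 and 0.848.

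Of the 12 genes of mitochondrial and other apoptosis, 4 rose (33.3%) and 8 did not pass, beside 11.6% of all genes called higher. AEN, a nuclease that acts in apoptosis, measured 305, 311, 284 and 286 CPM in ASO-Ctr, 298, 309, 299 and 297 CPM in SO-L1 and 424, 405, 386 and 377 CPM in ASO-L1. ASO-L1 lay well above the other groups, which overlapped each other, and the libraries within each group were close together. A log2 fold change of only 0.42 ± 0.04 against ASO-Ctr thus had an edgeR adjusted p of 2.52e-05. PHLDA3, an inhibitor of AKT, rose from 75.1, 74.2, 68.2 and 64.9 CPM to 96.9, 90.9, 85.4 and 89.7 CPM, by 0.36 ± 0.05 on the log2 scale (edgeR adjusted p = 0.000438). BBC3, the BH3-only protein PUMA, which neutralises the survival proteins of the BCL2 family, went from 51.7, 48.3, 41.1 and 39.5 CPM to 59.2, 60.4, 55.3 and 56.2 CPM. That is a log2 fold change of 0.36 ± 0.09 (edgeR adjusted p = 0.0113). TRIAP1, which protects cells from apoptosis, rose by 0.22 ± 0.04, from 71.0, 72.4, 70.2 and 70.0 CPM to 84.1, 79.4, 82.5 and 83.7 CPM (edgeR adjusted p = 0.00157). None of the 4 overlapped between ASO-L1 and ASO-Ctr, as was so for 25.5% of all genes. The 4 include TRIAP1, which acts against cell death, beside genes that promote it.

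BAX, the pore-forming protein of the outer mitochondrial membrane, was at 161, 169, 144 and 149 CPM in ASO-Ctr and 159, 164, 144 and 147 CPM in ASO-L1, a log2 fold change of -0.02 ± 0.06 that was called in neither fit. PMAIP1, the BH3-only protein NOXA, measured 269, 271, 205 and 217 CPM in ASO-Ctr and 254, 235, 185 and 192 CPM in ASO-L1. It was lower in each same-number pair, while the groups overlapped (-0.15 ± 0.14, edgeR adjusted p = 0.495, and 8.17e-05 with the block). Also called lower over all libraries with the block and not without it were APAF1, which assembles the apoptosome (-0.19 ± 0.09), the oxidoreductase TP53I3 (-0.21 ± 0.17), the stress protein TP53INP1 (-0.17 ± 0.22), SPATA18, which acts in mitochondrial quality control (-0.40 ± 0.20), and the mitochondrial reductase FDXR (-0.17 ± 0.11). The RNA-binding protein ZMAT3 (-0.18 ± 0.12) was called in neither fit. With the block 4 of the 12 were higher (33.3%) and 6 lower (50%), beside 22.5% and 22.5% of all genes. APAF1 overlaps ANKS1B and TP53I3 overlaps FAM228B on the opposite strand, again with reads that cannot be assigned with certainty.

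DNA repair and nucleotide supply held 5 members, of which 1 fell (20%) and 4 did not pass, beside 10.7% of all genes called lower. DDB2, the damage sensor of nucleotide excision repair whose decamer pair is shown above, measured 40.4, 41.7, 37.0 and 37.4 CPM in ASO-Ctr and 35.4, 35.5, 32.1 and 32.2 CPM in ASO-L1. No ASO-L1 library reached the lowest ASO-Ctr library, and the log2 fold change was -0.21 ± 0.06 (edgeR adjusted p = 0.0296). The call was lost with no filter on low counts (adjusted p = 0.0679), without ASO-Ctr library 1 or 2 (0.0736 and 0.0893) and without ASO-L1 library 3 or 4 (0.0846 and 0.0843). With the replicate block DDB2 was called lower (edgeR adjusted p = 0.000133). POLH, the polymerase that copies past ultraviolet lesions, had 0.27 ± 0.19 over all libraries (edgeR adjusted p = 0.338) and was called higher with the block (0.000265). By set it was called in numbers 3 and 4 (0.44 ± 0.09, edgeR adjusted p = 3.35e-05) and not in numbers 1 and 2 (0.15 ± 0.07, 0.107). The damage sensor XPC (0.02 ± 0.07), the ribonucleotide reductase subunit RRM2B (-0.09 ± 0.16) and the ribosomal protein RPS27L (-0.03 ± 0.05) were called in neither fit; XPC overlaps LSM3 on the opposite strand.

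Of the 3 secreted, stress and surface genes, GDF15, a secreted stress cytokine of the TGF-beta family, rose, beside 11.6% of all genes called higher. It measured 15.4, 17.6, 21.7 and 19.9 CPM in ASO-Ctr, 22.5, 21.3, 21.8 and 23.3 CPM in SO-L1 and 26.2, 24.4, 29.1 and 29.4 CPM in ASO-L1. SO-L1 lay between the other groups, and the ASO-L1 libraries lay above all others (0.55 ± 0.10 against ASO-Ctr, edgeR adjusted p = 0.00145). SESN1, a sestrin that restrains mTORC1, went from 81.4, 84.5, 56.7 and 61.1 CPM to 73.5, 71.9, 52.0 and 54.6 CPM, lower in each pair but overlapping (-0.17 ± 0.18, edgeR adjusted p = 0.565, and 0.000418 with the block). The surface protein CD82, with the fewest counts of the members, had -0.36 ± 0.21 and was called in neither fit.

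**Figure D2:**
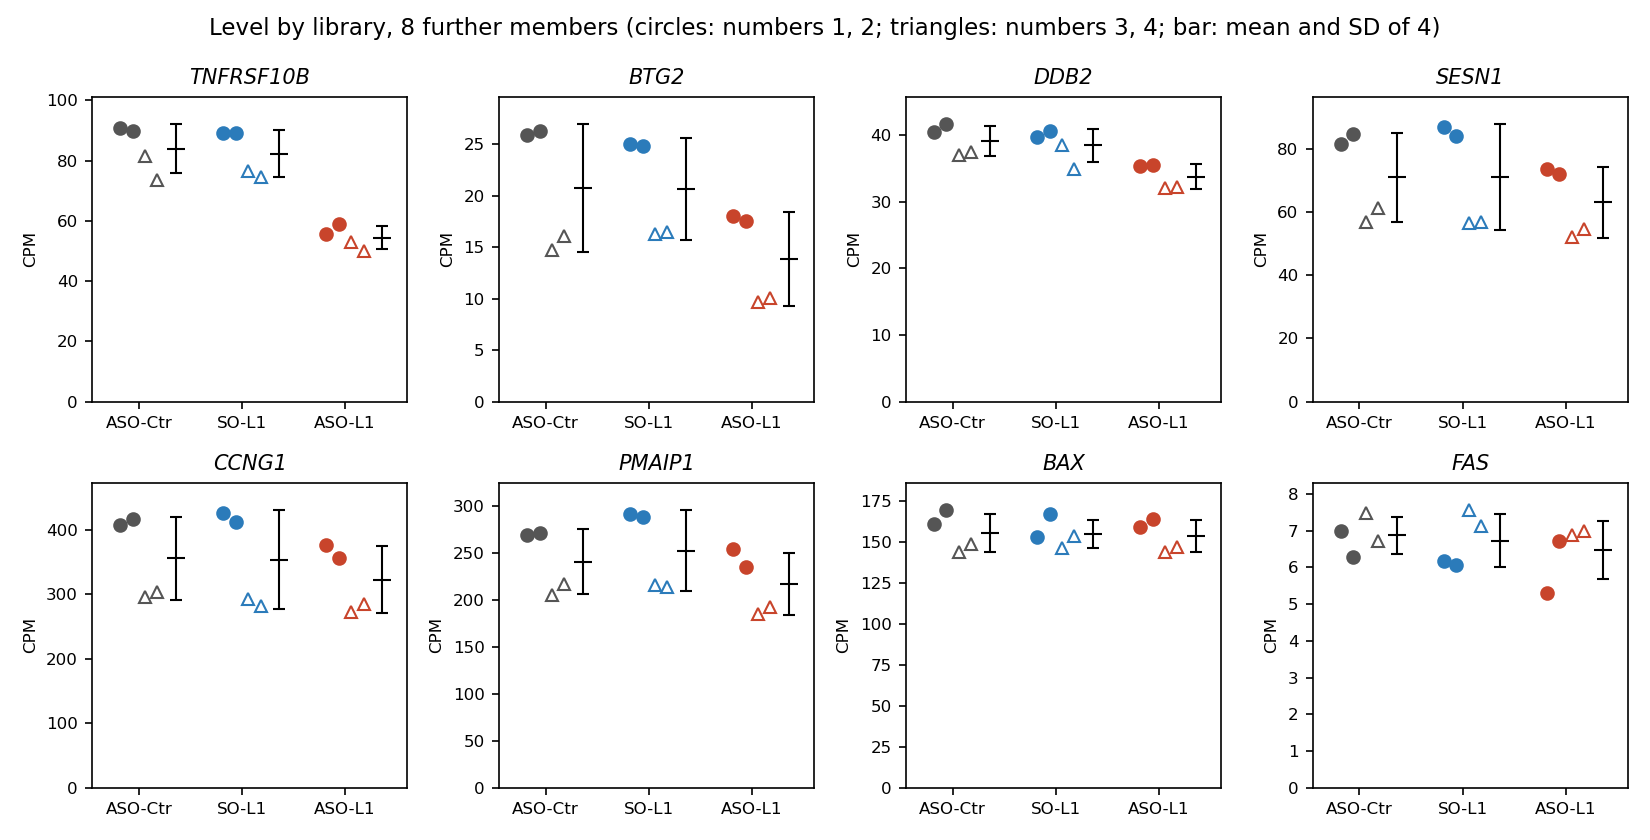
CPM (vertical axis, from 0) of 8 further members by library, with symbols as in the plot of the rising genes. TNFRSF10B and DDB2 have no overlap between ASO-L1 and ASO-Ctr; BTG2, SESN1, CCNG1 and PMAIP1 are lower in ASO-L1 within each set of numbers but overlap across the sets; BAX and FAS overlap throughout.

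ASO-L1 against SO-L1 sets the L1 antisense oligos beside the L1 sense oligos, which serve as the control for orientation. It shares its ASO-L1 libraries with the comparison above. Here 8 members were higher, 1 was lower and 26 did not pass, beside 10.7% of all genes called higher and 9.64% called lower. SFN rose by 2.05 ± 0.22, GADD45A by 1.20 ± 0.18, PLK2 by 1.13 ± 0.20 and PLK3 by 0.64 ± 0.11 on the log2 scale (edgeR adjusted p between 4.07e-05 and 0.00197). AEN (0.40 ± 0.04), PHLDA3 (0.37 ± 0.05), TRIAP1 (0.19 ± 0.04) and GDF15 (0.29 ± 0.10) were also higher, and TNFRSF10B was lower (-0.60 ± 0.08). The GDF15 call, with an edgeR adjusted p of 0.0473, was lost with total counts in place of TMM (0.0617), without SO-L1 library 1, 2, 3 or 4 (0.0816, 0.113, 0.0952 and 0.0636) and without ASO-L1 library 1, 3 or 4 (0.0671, 0.121 and 0.118). With the replicate block GDF15 was called higher than in SO-L1 (edgeR adjusted p = 8.95e-05). BBC3 (0.26 ± 0.09) did not pass at an edgeR adjusted p of 0.0584, and passed with DESeq2 (0.0431), limma-voom (0.0459), total counts (0.0426), only the 2 groups in the fit (0.0375) or without SO-L1 library 2 (0.0488). DDB2 (-0.19 ± 0.06, edgeR adjusted p = 0.0546) passed with total counts (0.0381), with DESeq2 (0.0373) and without SO-L1 library 4 (0.0242), and PPM1D (-0.16 ± 0.06, 0.0705) without ASO-L1 library 2 (0.0494).

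With the block 11 members were higher and 11 lower against SO-L1, beside 21.6% and 21.7% of all genes. BBC3, CDKN1A (0.26 ± 0.11 without the block) and MDM2 (0.13 ± 0.14) joined the higher members. BTG2, SPATA18, FDXR, PMAIP1, DDB2, SESN1, TP53INP1, PPM1D, CCNG1 and RRM2B joined the lower. At least 2-fold higher were SFN, GADD45A and PLK2, beside 1.86% of all genes. The libraries of ASO-L1 and SO-L1 did not overlap for 10 higher and 2 lower members, beside 24.1% of all genes. By set, in a fit of all 12 libraries, 10 members were higher and 11 lower than in SO-L1 in numbers 1 and 2. All genes gave 18.1% and 17.4% there. In numbers 3 and 4 of that fit 12 were higher and 7 lower, beside 15.7% and 16% of all genes. The authors' deposited table of this comparison lists all 35 members, 10 called higher and 7 lower at the same threshold, and gives the same call as the edgeR fit for 27. The other 8, all called in the authors' deposited table alone, are CDKN1A, BBC3, PMAIP1, DDB2, FDXR, BTG2, PPM1D and SPATA18. Log2 fold changes in the authors' deposited table were within 0.0241 of the fit for every member.

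SO-L1 against ASO-Ctr compares the control oligo sets, and each of them also serves as a control above. By edgeR 0 of the 35 members were called, as by DESeq2 and by limma-voom, beside 0% of all genes called higher and 0.029% called lower by edgeR. At an unadjusted p under 0.05 there was 1 member, GDF15, with a log2 fold change of 0.25 ± 0.10. GDF15 was also the member called higher with the block (adjusted p = 0.0346), beside 0.424% of all genes called higher and 0.987% called lower in that fit. SFN had the highest difference at 0.41 ± 0.23, with SO-L1 above ASO-Ctr in 4 of 4 pairs, and did not pass in either fit. No member had SO-L1 and ASO-Ctr libraries that did not overlap, beside 2.3% of all genes.

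The sets of numbers 1 and 2 and of numbers 3 and 4 gave separate estimates of the ASO-L1 effect from libraries that they do not share. Against ASO-Ctr, 11 members were higher and 12 lower in numbers 1 and 2, beside 18.5% and 18.3% of all genes. In numbers 3 and 4, 13 were higher and 10 lower, beside 16.6% and 16.6%. Higher in both sets were 11 members, which is 100% of those higher in numbers 1 and 2 and 84.6% of those higher in numbers 3 and 4. Lower in both were 8, or 66.7% and 80% of the lower members. The sign of the estimate differed between sets for 3 members, and 0 were called in opposite directions. These overlaps and signs were not counted over all genes, so whether the members differ from other genes here was not tested. MDM2 was called higher in each set (0.18 ± 0.04 and 0.13 ± 0.04) and BTG2 lower in each (-0.55 ± 0.07 and -0.64 ± 0.09), although neither was called in the fit without sets.

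The difference of the ASO-L1 effect between the sets was itself called for 4 members, 3 higher and 1 lower in numbers 3 and 4, beside 0.331% and 0.447% of all genes. The rise of CDKN1A was 0.20 ± 0.05 in numbers 1 and 2 but 0.50 ± 0.05 in numbers 3 and 4, a difference of 0.30 ± 0.07 (edgeR adjusted p = 0.00945). In ASO-Ctr alone it was lower in numbers 3 and 4, by -0.38 ± 0.05. GADD45A rose by 1.14 ± 0.07 and 1.57 ± 0.06, a difference of 0.43 ± 0.09 (edgeR adjusted p = 0.00707). For BTG1 the estimates were -0.07 ± 0.06, which was not called, and 0.30 ± 0.06, which was, with a difference of 0.37 ± 0.08 (edgeR adjusted p = 0.00989). SFN rose less in numbers 3 and 4, by 2.26 ± 0.07 against 2.72 ± 0.08 (difference -0.45 ± 0.11, edgeR adjusted p = 0.0249).

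The sets also differed within ASO-Ctr alone. In numbers 3 and 4, 6 members were higher and 22 lower than in numbers 1 and 2, beside 17.4% and 17.8% of all genes, and the median over the members was -0.22 against 0.01 over all genes. Lower in numbers 3 and 4 were BTG2 (-0.76 ± 0.07), TP53INP1 (-0.70 ± 0.07), POLH (-0.65 ± 0.08), SESN1 (-0.50 ± 0.05), RRM2B (-0.47 ± 0.05), CCNG1 (-0.46 ± 0.04), CDKN1A (-0.38 ± 0.05) and MDM2 (-0.33 ± 0.04), with 14 more. SFN (0.63 ± 0.10), TP53I3 (0.53 ± 0.06), PLK2 (0.43 ± 0.08), PLK3 (0.36 ± 0.09), GDF15 (0.33 ± 0.08) and GADD45A (0.31 ± 0.07) were higher. What the sets share beyond their numbers is not in the labels and its part was not tested.

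**Figure D3:**
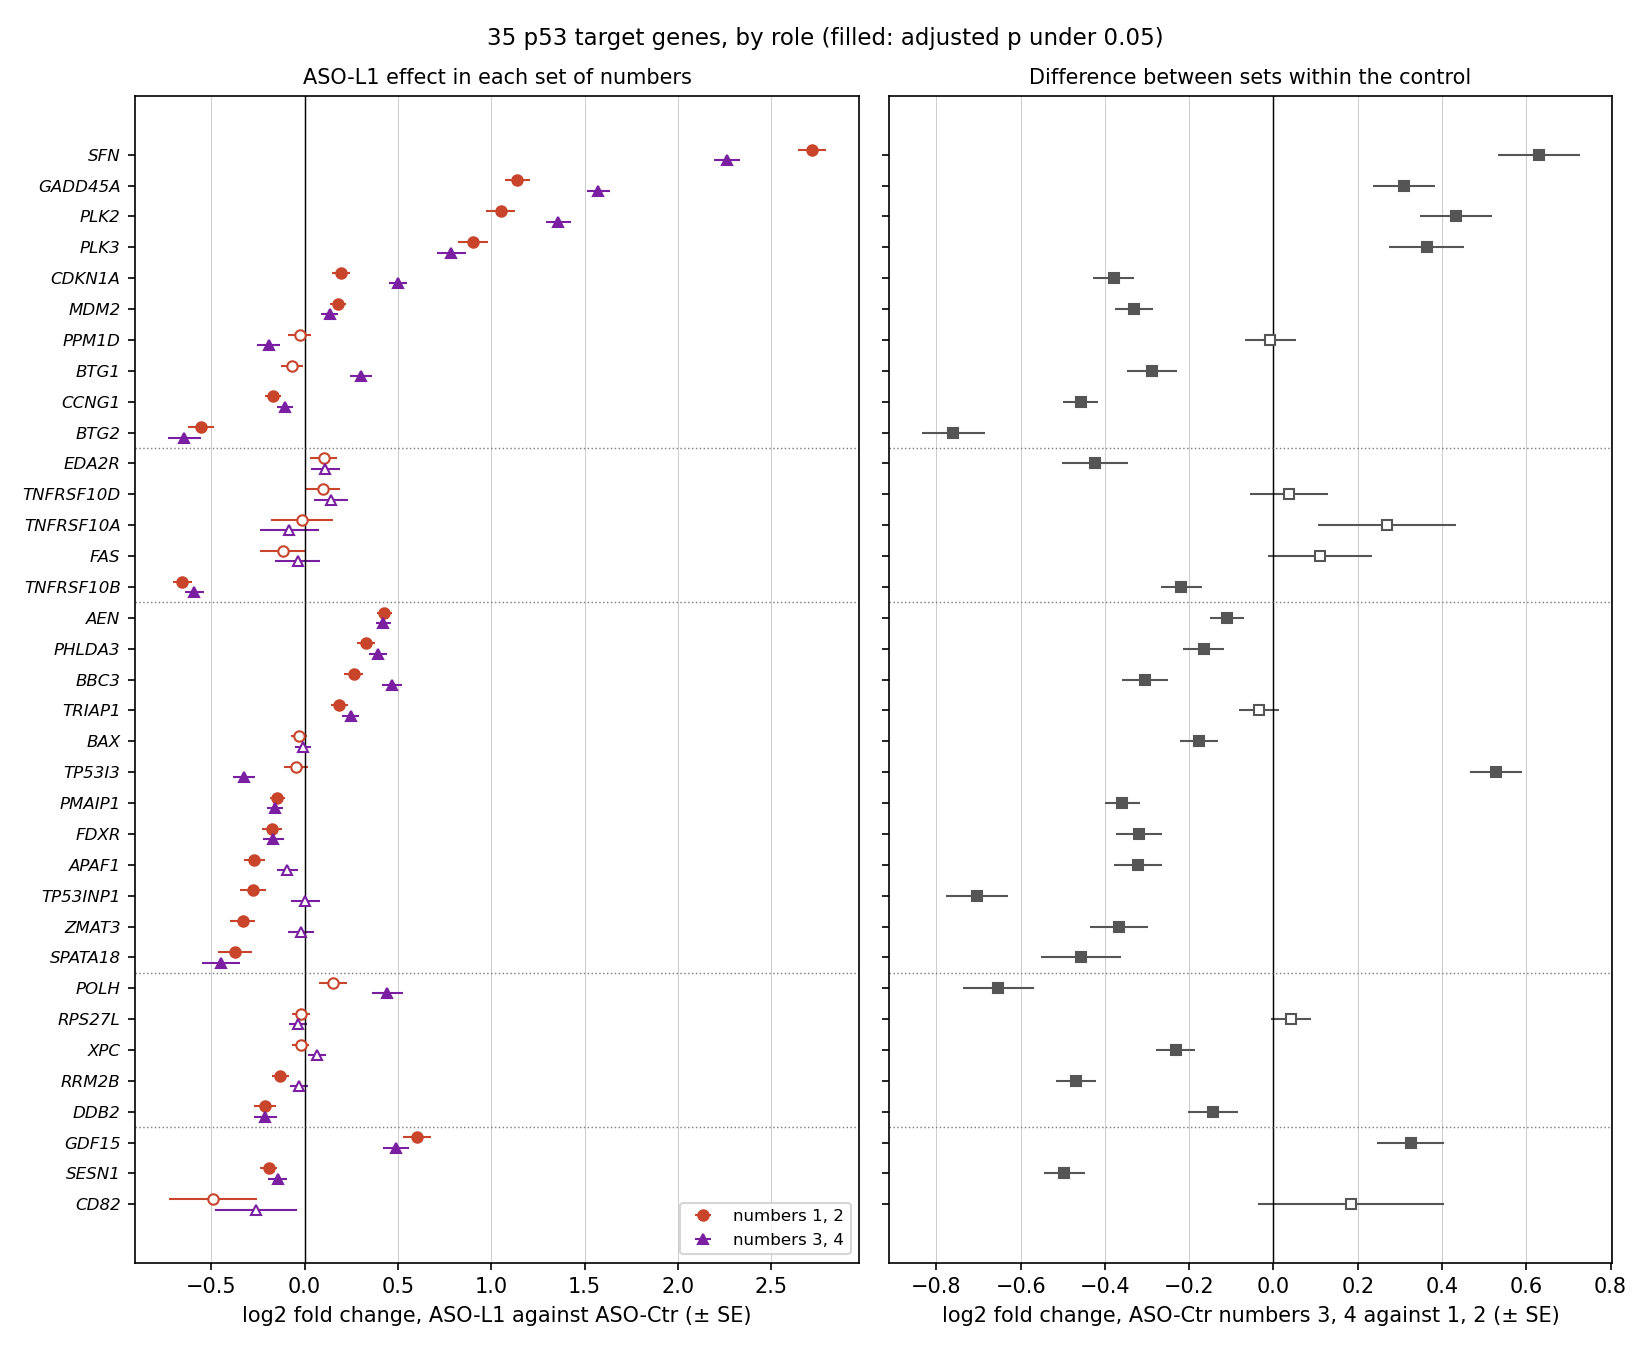
Left, log2 fold change of ASO-L1 against ASO-Ctr (horizontal axis, ± SE) for the 35 members by role in numbers 1 and 2 (circles) and numbers 3 and 4 (triangles); right, ASO-Ctr numbers 3 and 4 against 1 and 2. Filled symbols have an adjusted p under 0.05, and 11 members are filled on the higher side and 8 on the lower side for both sets at left.

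**Figure D4:**
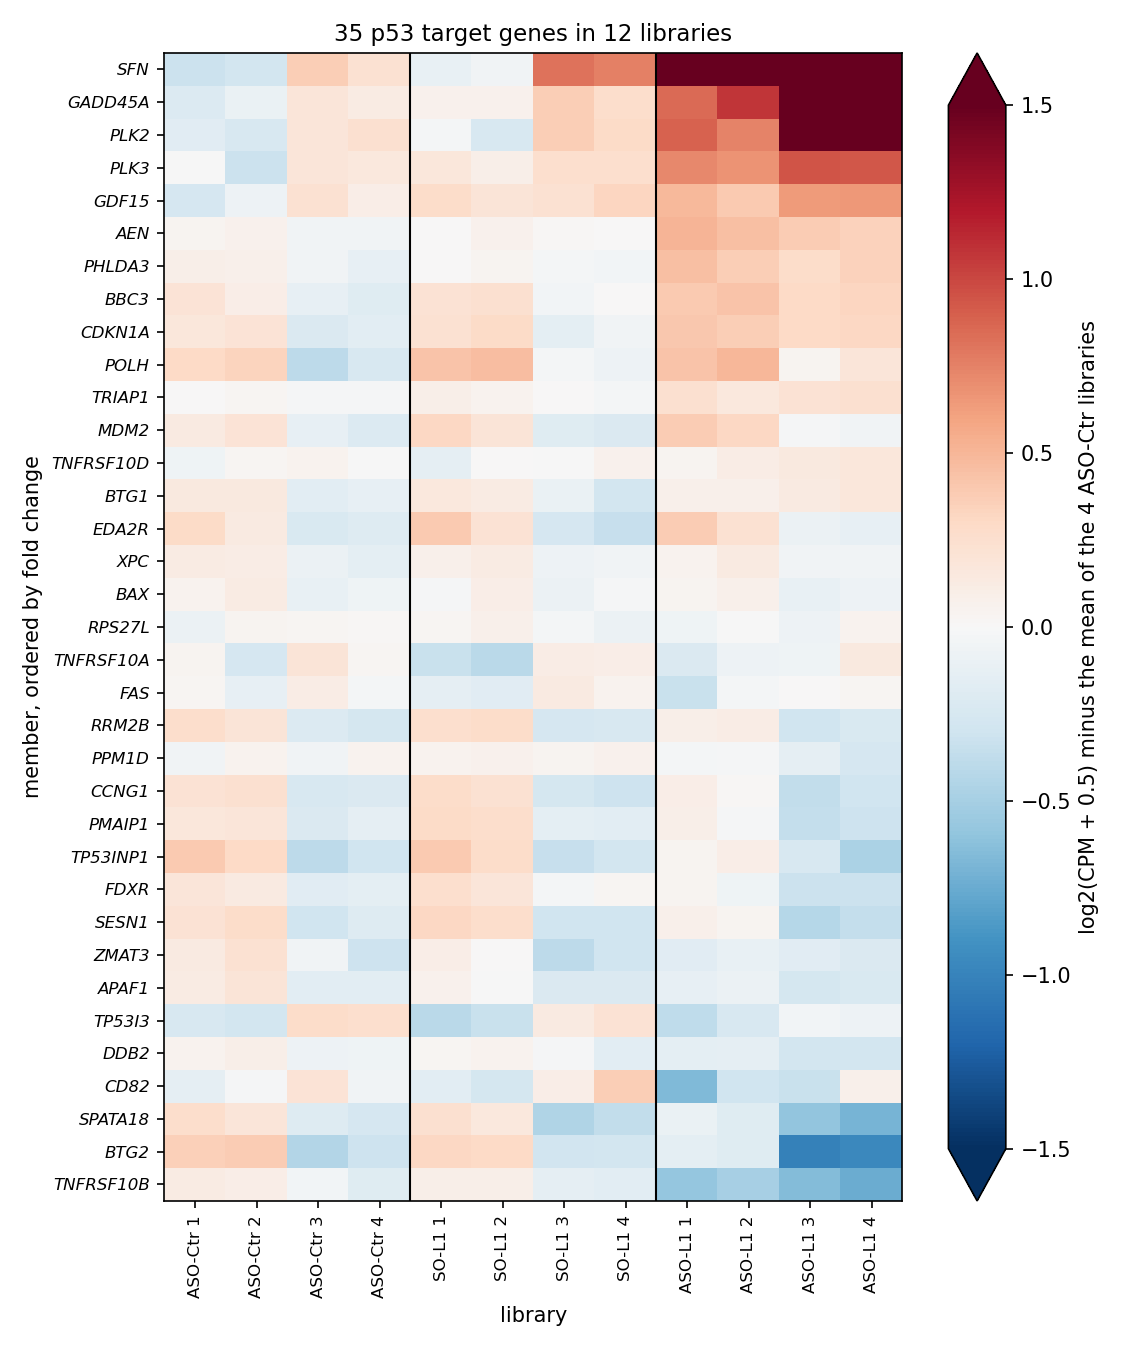
Colour shows log2(CPM + 0.5) of each member (rows, ordered by fold change) in each library (columns) minus the mean of the 4 ASO-Ctr libraries, with colours limited to ± 1.5. SFN, GADD45A, PLK2 and PLK3 are red in all ASO-L1 libraries, and rows such as POLH, RRM2B, CCNG1, SESN1 and BTG2 alternate with the set of numbers in each group.

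The pathway around the members was read from 4 further lists in the same fit against ASO-Ctr, and in brief against SO-L1. Of 37 tested genes for p53 and its regulators, 8 were higher (21.6%) and 5 lower (13.5%), beside 11.6% and 10.7% of all genes. With the block 10 (27%) and 11 (29.7%) were called, beside 22.5% and 22.5% of all genes. MDM4, the relative of MDM2 that blocks p53 activity, rose from 38.3 ± 4.14 to 49.0 ± 4.45 CPM (0.36 ± 0.11, edgeR adjusted p = 0.0306). The MDM4 call was lost without ASO-Ctr library 2, 3 or 4 (0.0560, 0.0812 and 0.0886) and without ASO-L1 library 1, 2 or 3 (0.0893, 0.0971 and 0.0565). The smallest p among the regulators were those of TRIM24, a ubiquitin ligase for p53 (-0.30 ± 0.03), the histone chaperone DAXX (0.48 ± 0.09), PPP1R13B, the p53 cofactor ASPP1 (0.48 ± 0.09), and the histone methyltransferase SETD8 (0.36 ± 0.07).

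Of 82 tested genes among further p53 targets, 16 were higher (19.5%) and 15 lower (18.3%), again beside 11.6% and 10.7% of all genes. With the block the 22 higher (26.8%) and 24 lower (29.3%) stood near the 22.5% and 22.5% of all genes. SERTAD1, a CDK4-binding regulator, rose by 1.16 ± 0.13 on the log2 scale. The small GTPase RAP2B (-0.47 ± 0.04) and KITLG, the ligand of KIT (-0.53 ± 0.06), fell. Of 42 cell cycle genes that p53 lowers through p21 and the DREAM complex, 7 were higher (16.7%) and 4 lower (9.52%), against the same 11.6% and 10.7%; the median log2 fold change was 0.02. With the block 15 (35.7%) and 10 (23.8%) were called, against 22.5% and 22.5%. The mitotic activator CDC20 (0.39 ± 0.07), the transcription factor MYBL2 (0.40 ± 0.08) and the centromeric histone CENPA (0.28 ± 0.06) rose, and the kinesin KIF11 fell by 0.17 ± 0.04 on the log2 scale. Among 26 tested genes of the BCL2 family and caspases, 8 were higher (30.8%) and 1 lower (3.85%), where all genes gave 11.6% and 10.7%, and with the block 11 (42.3%) and 3 (11.5%), where all genes gave 22.5% and 22.5%. HRK, a BH3-only protein, rose from 10.5 ± 0.262 to 26.0 ± 3.44 CPM (1.31 ± 0.09), and the BH3-only genes BIK (1.15 ± 0.24) and BAD (0.27 ± 0.07) and the caspase CASP2 (0.23 ± 0.05) rose as well. The call of BAD was lost with no filter on low counts (adjusted p = 0.0835). Against SO-L1, 7 of the regulators were higher (18.9%) and 3 lower (8.11%), beside 10.7% and 9.64% of all genes. Of the further p53 targets 10 (12.2%) were higher and 13 (15.9%) lower than in SO-L1. The cell cycle list gave 7 (16.7%) and 4 (9.52%), and the BCL2 family and caspases 6 (23.1%) and 1 (3.85%).

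Markers of other cells moved with the same contrast. Over all genes 11.6% were called higher and 10.7% lower, and 22.5% and 22.5% with the block. Of 7 tested fibroblast and feeder markers, 4 were higher in ASO-L1 (VIM, S100A4, TWIST2 and COL1A1) and 0 lower. With the block THY1 was higher too, and COL1A2 (-0.18 ± 0.11 without the block) and POSTN (-0.39 ± 0.57) were lower. Their summed level over 10 markers was 383 to 497 CPM in ASO-Ctr, 377 to 488 CPM in SO-L1 and 637 to 669 CPM in ASO-L1. VIM, which embryonic stem cells also express, took most of the rise, from 116 ± 9.30 to 294 ± 47.4 CPM. The fibroblast markers COL3A1 (0.233 and 0.0651 CPM in ASO-Ctr and ASO-L1), LUM (0.0310 and 0.0201 CPM) and DCN (0.0103 and 0 CPM) were at or near 0 in both groups. Of the 8 pluripotency markers 4 were lower in ASO-L1 (POU5F1, SOX2, LIN28A and SALL4), and 8 with the block. Of the 8 naive markers 3 were higher (KLF4, 0.88 ± 0.10; TFCP2L1, 0.74 ± 0.08; DNMT3L, 0.70 ± 0.21) and 0 lower, with a median of 0.47, and with the block 5 were higher, SUSD2 and KLF17 included, and 1, DPPA5, lower. In numbers 1 and 2 the naive median was 0.08, with 3 higher and 1 lower, beside 18.5% and 18.3% of all genes. In numbers 3 and 4 it was 0.44, with 6 higher and 1 lower, beside 16.6% and 16.6%. The difference between sets was called for 2 naive markers higher and 1 lower, beside 0.331% and 0.447% of all genes. Of 7 tested primed pluripotency markers 1 was higher and 1 lower (3 and 1 with the block). THY1 is on the primed list as well. Of 4 tested trophectoderm and amnion markers GATA2 and KRT7 were higher, at 2.24 and 2.94 CPM in ASO-L1. Of 4 tested primitive endoderm markers 1 was higher and 1 lower (1 and 2 with the block), with log2 fold changes from -0.70 to 3.58. The primitive endoderm list summed to 88.6 to 108 CPM in ASO-Ctr, 83.4 to 100 CPM in SO-L1 and 73.9 to 87.2 CPM in ASO-L1. The part of these marker changes in the results on the p53 targets was not tested.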

How the data were processed

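RNA-seq counts of 12 H9 libraries (3 oligo groups of 4) were analysed. Per the labels' protocols, poly(A) RNA was made into directional libraries. Per the submitters' processing notes, Trim Galore 0.4.0, TopHat2 2.0.13 and featureCounts of Subread 1.5.0 were used with build hg19; parameters and strand setting are not given in the sources used here. The deposited raw counts per gene symbol carry the tag rmDup, which is not explained. The 1 row with no gene name (0 to 3 counts per library) was left out. A deposited log2 table with 12 per-sample columns, named as batch corrected, was not used. From the authors' deposited table for ASO-L1 and SO-L1, log2 fold changes, p-values and adjusted p-values were copied.

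In R 4.3.3 with edgeR 4.0.16, genes passed filterByExpr by group (least count 10, least total 15). Counts were scaled with TMM, and all 12 libraries entered 1 robust quasi-likelihood fit with a mean per group; SE is the log2 fold change divided by the square root of F. Sets of numbers were tested in a model with 6 means. The scripts were tested on simulated data. Libraries of the same number deviated together once group means were removed (r from 0.450 to 0.561 over 12 pairs), as did the other number of the same set (0.455 to 0.543), and the sets opposed each other (-0.530 to -0.426); no label says what same-number libraries share. Alternatives were a replicate or set block, RLE size factors, no filter, DESeq2 1.42.0, limma-voom (limma 3.58.1), only the 2 groups compared, each set alone, leaving out each library and, chosen after seeing the data, total counts without scaling. Members, roles and lists were chosen with earlier results of these data known. All members were to be named, with up to 4 genes of smallest p from each further list, and MDM4; some genes that this rule names are not reported here. Promoter windows are from RefSeq, and overlapping genes from GENCODE.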

Additional observations from a re-analysis of the deposited data

Results flagged for a closer look

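In ASO-L1 library 1, FAS was the lowest of its group at 5.31 CPM, far from the other 3 libraries. In ASO-Ctr library 1, RPS27L was the lowest of its group at 87.0 CPM. These were 2 of 105 groups of 4 libraries examined with Dixon's test, which chance alone flags in about 1 in 20. The ASO-L1 effect differed between numbers 3 and 4 and numbers 1 and 2, by the edgeR test of the difference, for CDKN1A (0.30 on the log2 scale), BTG1 (0.37), GADD45A (0.43) and SFN (-0.45).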

How the results depend on the processing

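Against ASO-Ctr, 10 members were higher under most settings, with 9 to 13 under the others. The 2 lower members became 11 with the replicate block, 12 with the set of numbers as a block, 1 with no filter, 12 in numbers 1 and 2 alone and 10 in numbers 3 and 4 alone, and 1 to 2 without single libraries (1 without ASO-Ctr library 1 or 2 or ASO-L1 library 3 or 4). Against SO-L1 the 8 higher members became 13 in numbers 3 and 4 alone; the 1 lower member became 11 with the replicate block, 11 with the set block, 2 with total counts, 2 with DESeq2, 11 in numbers 1 and 2, 7 in numbers 3 and 4 and 1 to 2 without single libraries (2 without SO-L1 library 4 or ASO-L1 library 2). For SO-L1 against ASO-Ctr the count of 0 higher became 1 with either block and in either set alone. The replicate block changed no call among the members other than those named in the results, and removed none.

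Among the further lists, against ASO-Ctr: for p53 and its regulators the 5 lower became 11 with either block, 3 with no filter, 10 in numbers 3 and 4 alone and 3 to 5 without single libraries (3 without ASO-L1 library 1 or 3 or ASO-Ctr library 2), and the 8 higher 5 to 8 (5 without ASO-L1 library 1). For further p53 targets the 15 lower became 24 with either block, 8 with no filter and 8 to 14 without single libraries (8 without ASO-Ctr library 1, 9 without ASO-L1 library 3 or 4). For the cell cycle list the 7 higher became 15 with the replicate block, 14 with the set block and 11 in numbers 1 and 2; the 4 lower became 10, 11 and 8, with 7 in numbers 3 and 4, 2 with no filter and 2 to 4 without single libraries (2 without ASO-L1 library 3 or ASO-Ctr library 4). For the BCL2 family and caspases the 8 higher became 4 with no filter and 5 to 7 without single libraries (5 without ASO-Ctr library 3 or ASO-L1 library 4); the 1 lower became 3 with either block, 0 with no filter, 3 in numbers 1 and 2, 2 in numbers 3 and 4 and 0 to 2 without single libraries.

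Sign changes against ASO-Ctr occurred for XPC (-0.0216 in numbers 1 and 2; -0.0298 to 0.0603 without single libraries), BTG1 (-0.0679 in numbers 1 and 2), TP53INP1 (0.00671 in numbers 3 and 4), BAX (-0.0643 to 0.0228 without single libraries), TNFRSF10A (-0.152 to 0.0129), RRM2B (-0.172 to 0.00515) and EDA2R (-0.00187 to 0.207). None of these 7 was called over all 12 libraries without a block; in single sets BTG1 was called higher in numbers 3 and 4, and TP53INP1 and RRM2B lower in numbers 1 and 2. The causes were not tested. The depth limits CD82 and TNFRSF10A most, with 30 to 69 and 58 to 120 counts per library.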
